A study of Mus musculus with 6 samples.

Results

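The genes described here encode core proteins that carry heparan sulfate at the cell surface and in the matrix, and the extracellular enzymes that trim its sulfate groups. They are the extracellular sulfatases *Sulf1* and *Sulf2*, the glypicans *Gpc1*, *Gpc3*, *Gpc4*, and *Gpc6*, the syndecans *Sdc1*, *Sdc2*, and *Sdc4*, and *Hspg2*, which encodes perlecan. All 10 were found by gene symbol among the 23997 genes of the deposited table, and all 10 passed the filter of a mean FPKM of at least 1 that left 12955 genes for testing. The set was chosen by family, with results of these data already known, and *Sulf2* was chosen by its lower values in the KO libraries. The values of *Sulf2* are therefore given as a description with no test.

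The libraries were made from ductus arteriosus (DA), the fetal vessel that joins the pulmonary artery to the aorta, of C57BL/6 mouse embryos at E17.5. The 3 WT libraries came from wild type embryos and the 3 KO libraries from Prdm6f/f; SM22-Cre embryos, in which Cre under the *SM22* promoter is used to remove floxed *Prdm6* from smooth muscle cells (SMCs). The study describes WT littermates as its controls and no treatment was given, but no source used here says whether they carried Cre or a floxed allele, or whether vessels were pooled. Each group has libraries numbered 0, 1, and 2, and nothing in the labels says that these were separate embryos, so the p values given here measure the spread between libraries only.

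Heparan sulfate is a long sugar chain attached to core proteins. Its sulfate groups bind growth factors such as FGFs, and the chain acts as a co-receptor for them. Syndecans carry the chain on a membrane-spanning core, glypicans on a core anchored to the outer membrane by a lipid, and perlecan within basement membranes, which surround vascular SMCs. The sulfatases SULF1 and SULF2 act outside the cell and remove 6-O-sulfate groups from finished chains.

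The total depth of the libraries is unknown, since FPKM (fragments scaled by transcript length and by library size) holds no read counts. The steps between low FPKM values put the other 5 libraries at between 0.927 and 1.19 times the depth of WT1. Only ratios within 2-fold were used, so a larger difference could not show. Each estimate rests on the 9 to 18 genes at the most common ratio, out of 69 to 129 low genes. Genes listed at 0 ranged from 8338 to 11886 between libraries. Equal depth is thus not shown. FPKM of *Prdm6* itself was between 19.8 and 48.4 in the WT and between 15.4 and 48.6 in the KO libraries, so that the groups overlapped, and KO0 had the highest value of the 6. The floxed part of the gene is not given in the sources used here, so its whole-gene FPKM does not check the labels, on which the directions below rest. Library KO0 held transcripts of both *Xist* and the Y chromosome (81.0 FPKM of *Xist* and 26.4 FPKM of *Ddx3y*), whereas in each other library one of the 2 was at most 0.383 FPKM. Whether KO0 holds more than 1 embryo cannot be told from the labels. Without KO0, the log2 difference was -1.15 for *Sulf2*, -0.39 for *Sdc1*, and -0.90 for *Sdc4*. Summed FPKM of 10 smooth muscle markers was between 2537 and 5855 in the WT and between 936 and 2439 in the KO libraries, with 6 of the 10 markers lower in every KO library than in any WT library. Summed FPKM of 8 Schwann cell markers was between 12.6 and 37.9 in the WT and between 46.6 and 147 in the KO libraries, that of 8 neuron markers was between 7.62 and 19.7 and between 39.8 and 54.8, and that of 12 heart muscle markers was highest in WT1 (1704) and KO2 (1999). In bulk tissue, fewer cells of a type and less RNA per cell cannot be told apart.

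Groups were compared with limma on log2(FPKM + 0.1), with Benjamini-Hochberg adjustment over all genes tested. At an adjusted p under 0.05, 1 of the 12955 genes was called (0.00772%), and it was no member. Of the 9 members other than *Sulf2*, 0 passed this threshold in limma, and 1, *Sdc4*, had an unadjusted p under 0.05. *Sdc4* was lower in KO. At that unadjusted threshold, 4.97% of all genes tested were lower and 3.31% higher in KO. Among all genes tested, 7.84% were lower in every KO library than in any WT library and 8.21% were higher in every KO library. Of the 10 members, 3 were lower in every KO library, namely *Sulf2*, *Sdc1*, and *Sdc4*, and 0 were higher in every KO library. Because *Sulf2* was chosen for this pattern, the count is a description. The median log2 difference was -0.23 over the members and 0.072 over all genes tested.

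The sequences before a RefSeq start of these 3 genes are shown because they are the members without overlap between the groups. RefSeq windows on GRCm38.p6 were at hand for 6 of the 10 members, *Sulf2*, *Sdc1*, *Sdc4*, *Gpc3*, *Gpc4*, and *Hspg2*. Each line gives the 250 bases before the RefSeq start, 5′ to 3′ on the strand of the gene. Each GC box is in capitals (GGGCGG, or CCGCCC for the same letters on the other strand, the site class bound by SP1). The window of *Sulf2* lies at chr2:166155684-166155933 on the minus strand, that of *Sdc1* at chr12:8771146-8771395 on the plus strand, and that of *Sdc4* at chr2:164443189-164443438 on the minus strand. Gene positions below are from GENCODE, whose starts differ from those of RefSeq. By GENCODE, the *Sdc4* window lies wholly within the gene and the *Sdc1* window runs into it. The windows of *Gpc4* and of the second *Sulf2* start also lie within their genes, and that of *Hspg2* runs into its gene.
Sulf2: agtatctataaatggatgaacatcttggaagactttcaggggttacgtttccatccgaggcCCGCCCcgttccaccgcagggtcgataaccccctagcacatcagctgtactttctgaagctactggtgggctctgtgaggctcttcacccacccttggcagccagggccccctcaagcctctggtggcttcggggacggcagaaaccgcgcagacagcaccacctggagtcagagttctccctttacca
Sdc1: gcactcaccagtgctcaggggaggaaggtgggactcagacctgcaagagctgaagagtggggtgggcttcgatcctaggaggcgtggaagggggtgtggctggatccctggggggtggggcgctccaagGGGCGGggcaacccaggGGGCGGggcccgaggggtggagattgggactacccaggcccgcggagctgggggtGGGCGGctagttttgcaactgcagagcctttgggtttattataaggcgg
Sdc4: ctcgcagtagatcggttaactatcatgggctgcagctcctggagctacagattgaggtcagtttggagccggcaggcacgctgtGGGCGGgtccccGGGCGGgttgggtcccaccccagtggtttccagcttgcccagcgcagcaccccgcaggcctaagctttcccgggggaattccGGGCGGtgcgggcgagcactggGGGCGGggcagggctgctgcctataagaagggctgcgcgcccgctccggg
The number of GC boxes was 1 for *Sulf2*, 3 for *Sdc1*, and 4 for *Sdc4*. A GC box was present in 32.7% of all 32851 RefSeq windows of this length and in 6 of the 7 windows of members, the exception being the second start of *Sulf2*. The members whose groups overlapped had it too, with 3 for *Gpc3*, 1 for *Gpc4*, and 5 for *Hspg2*. The CArG box, the site of the smooth muscle regulator SRF, had 0 matches in the 7 windows and was present in 1.47% of all windows. The *Sulf2* window also held TATAAA, in lower case near its 5′ end (12.4% of all windows hold it on either strand). These are matches of letters in a short window and say nothing of binding.

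Of the sulfatases, *Sulf2* lies on chromosome 2 of GRCm38, from 166073089 to 166155663 on the minus strand. Its FPKM was 116, 103, and 122 in WT0, WT1, and WT2 and 52.5, 55.8, and 46.6 in KO0, KO1, and KO2. The lowest WT library was thus 1.85 times the highest KO library, and the libraries within each group were close together. The mean was 114 ± 9.66 (SD, n = 3) in the WT and 51.6 ± 4.66 (SD, n = 3) in the KO libraries, which is 45.3% of the WT mean. The log2 difference was -1.14 (standard error 0.16), and 4.48% of the genes tested had a lower value. It stayed between -1.21 and -1.07 with each library left out in turn, which describes the values the gene was chosen by and is no test.

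An exon of *Sulf2* overlaps an exon of *Ncoa3*, a nuclear receptor coactivator gene on the opposite strand, and the labels do not say whether reads were counted by strand. FPKM of *Ncoa3* was between 7.06 and 12.5 in the WT and between 10.9 and 14.9 in the KO libraries, far below *Sulf2*. In the libraries with *Xist* and *Ddx3y* at most 0.383 FPKM, *Sulf2* was at 116 FPKM in WT0 and 55.8 FPKM in KO1. In those with *Ddx3y* and almost no *Xist*, it was at 103 and 122 FPKM in WT1 and WT2 and at 46.6 FPKM in KO2. Each of these comparisons holds 1 KO library, and the part of embryo sex in the difference was not tested.

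The smooth muscle markers were lower in the same libraries as *Sulf2*, and their part in the difference was not tested. Within the WT group, the marker sum ranged from 2537 FPKM in WT2 to 5855 FPKM in WT0, and *Sulf2* was at 122 and 116 FPKM in these 2 libraries. In KO0, the marker sum was 2439 FPKM and *Sulf2* was at 52.5 FPKM. These are values of single libraries, and KO0 is the one with transcripts of both *Xist* and the Y chromosome. The sum also hides that 6 of the 10 markers were lower in every KO library than in any WT library.

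**Figure D1:**
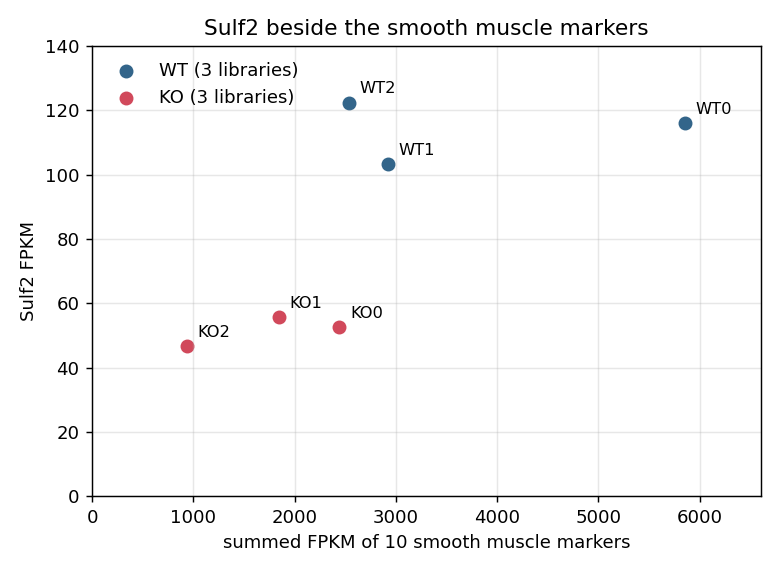
FPKM of *Sulf2* (vertical axis) against the summed FPKM of 10 smooth muscle markers (horizontal axis), 1 point per library. The WT libraries lie between 103 and 122 FPKM of *Sulf2* and the KO libraries between 46.6 and 55.8. Their marker sums lie between 2537 and 5855 FPKM and between 936 and 2439 FPKM.

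*Sulf1*, on chromosome 1 from 12692277 to 12861192, was the more abundant sulfatase in every library. Its FPKM was 468, 388, and 253 in WT0, WT1, and WT2 and 295, 209, and 252 in KO0, KO1, and KO2. The groups overlapped because WT2 lay below KO0. The mean was 370 ± 108 (SD, n = 3) in the WT and 252 ± 42.7 (SD, n = 3) in the KO libraries, with a log2 difference of -0.52 (standard error 0.26, adjusted p = 0.624 from limma). Without WT2 the log2 difference was -0.77, and without WT0 it was -0.33. The sum of both sulfatases was 584, 491, and 376 FPKM in the WT and 347, 265, and 298 FPKM in the KO libraries, and these ranges do not overlap, but the sum holds *Sulf2*, the gene chosen by its lower KO values, and *Sulf1* alone did overlap. *Sulf1* made up between 67.4% and 80.1% of this sum in the WT and between 78.9% and 84.9% in the KO libraries, and these ranges overlap.

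**Figure D2:**
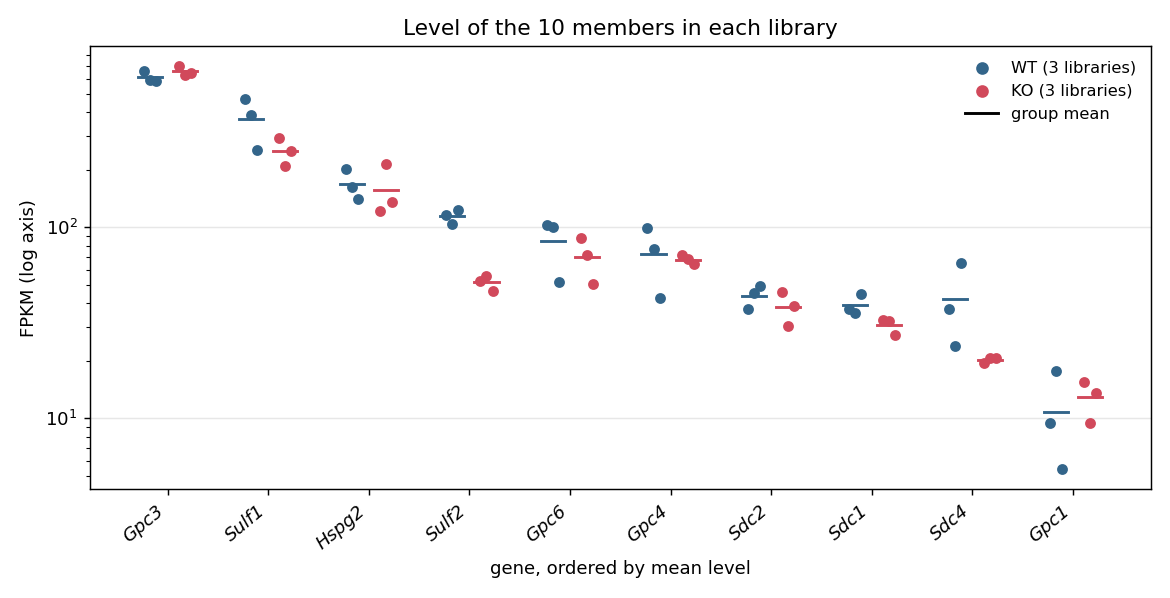
FPKM on a log axis (vertical) of the 10 members (horizontal, ordered by mean level), with 1 point per library and a line at each group mean, WT on the left and KO on the right of each pair. *Sulf2*, *Sdc1*, and *Sdc4* have every KO point below every WT point, and *Gpc3* stands above all other members at 581 to 697 FPKM.

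*Sdc4*, on chromosome 2 from 164424247 to 164443887, encodes the syndecan found at focal adhesions. Its FPKM was 37.2, 23.9, and 64.9 in WT0, WT1, and WT2 and 19.4, 20.7, and 20.7 in KO0, KO1, and KO2. The KO libraries were nearly equal, and the WT libraries differed from each other by up to 2.71-fold. The log2 difference was -0.93 (standard error 0.34), which limma gave a p of 0.0281 before and 0.574 after adjustment, with 42.0 ± 20.9 (SD, n = 3) FPKM in the WT and 20.2 ± 0.765 (SD, n = 3) FPKM in the KO libraries. Among all genes tested, 4.97% had an unadjusted p under 0.05 and were lower in KO, and 3.31% were higher in KO at that threshold. Without WT2 the log2 difference was smaller, at -0.56 (adjusted p = 0.625 from limma). WT2 also had the highest sums of the 6 libraries for the epithelial and mesothelial markers (233 FPKM) and for the fibroblast markers (5138 FPKM), and their part in the *Sdc4* level was not tested.

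*Sdc1*, on chromosome 12 from 8771323 to 8793715, encodes a syndecan known best from epithelia and plasma cells. Its FPKM was 37.4, 35.6, and 44.5 in WT0, WT1, and WT2 and 32.7, 32.4, and 27.2 in KO0, KO1, and KO2. The groups did not overlap, but the gap between WT1 and KO0 was small beside the spread within the groups. The log2 difference was -0.35 (standard error 0.18, adjusted p = 0.643 from limma). *Sdc2*, on chromosome 15 from 32920723 to 33034935, is the main syndecan of mesenchymal cells. Its FPKM was 37.3, 45.3, and 49.1 in WT0, WT1, and WT2 and 45.6, 30.3, and 38.5 in KO0, KO1, and KO2. These ranges overlap, with a log2 difference of -0.21 (standard error 0.21, adjusted p = 0.760 from limma). The fourth syndecan, *Sdc3*, was at 32.9, 33.9, and 31.3 FPKM in the WT and 37.8, 33.0, and 24.9 FPKM in the KO libraries, which overlap.

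**Figure D3:**
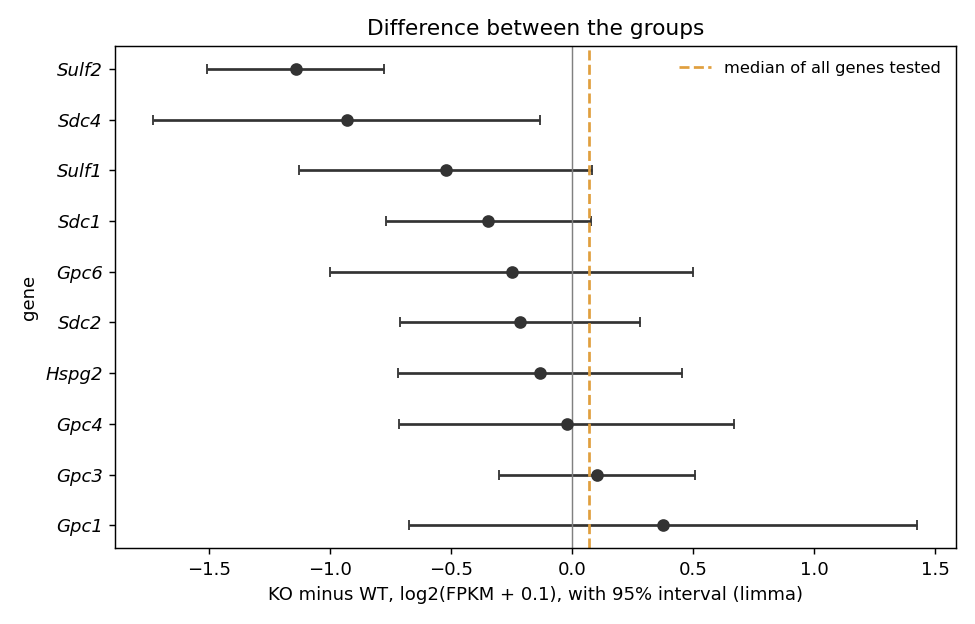
Difference between the groups on the log2(FPKM + 0.1) scale (horizontal axis, KO minus WT) for each member, with its 95% interval from limma before adjustment for multiple genes. The dashed line marks the median of all genes tested, 0.072. The interval of *Sulf2* is drawn as a description and is no test, because the gene was chosen by this difference. That of *Sdc4* lies below 0, and those of the other 8 members include 0.

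The glypicans did not separate the groups. *Gpc3*, which binds Hedgehog and Wnt ligands and whose loss in humans causes an overgrowth syndrome, lies on chromosome X from 52272426 to 52613950. It was the most abundant member in all 6 libraries and the one with the least spread. Its FPKM was 657, 592, and 581 in WT0, WT1, and WT2 and 697, 623, and 645 in KO0, KO1, and KO2. The log2 difference was 0.10 (standard error 0.17, adjusted p = 0.856 from limma), with a 95% interval from -0.30 to 0.51. *Gpc4*, its neighbor on the X chromosome at a distance of 107173 bp, was at 98.8, 77.2, and 42.5 FPKM in the WT and 71.2, 67.8, and 64.3 FPKM in the KO libraries, so that the KO values lay within the WT range. Its log2 difference was -0.02 (standard error 0.30, adjusted p = 0.984 from limma).

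*Gpc6*, a glypican gene of 1051230 bp on chromosome 14 (116925315 to 117976544), was at 102, 101, and 51.5 FPKM in the WT and 88.1, 71.3, and 50.3 FPKM in the KO libraries. In both *Gpc4* and *Gpc6*, WT2 was the lowest of the WT libraries, and without WT2 every KO library was below every remaining WT library. Groups with fewer libraries separate more readily, and the share of all genes is not given for that setting. *Gpc1*, on chromosome 1 from 92831645 to 92860779, was the least abundant member, at 9.40, 17.7, and 5.41 FPKM in the WT and 15.6, 9.44, and 13.6 FPKM in the KO libraries. It had a log2 difference of 0.38 (standard error 0.45, adjusted p = 0.798 from limma), which was -0.03 without WT2. An exon of *Gpc1* overlaps one of *Ankmy1* on the opposite strand, which was listed at 0 in all 6 libraries. The remaining glypicans were low, with *Gpc2* between 0.729 and 4.59 FPKM and *Gpc5* listed at 0 in 5 of the 6 libraries.

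*Gpc3* made up 75.7%, 74.9%, and 85.1% of the summed glypican FPKM in WT0, WT1, and WT2 and 79.5%, 80.7%, and 83.0% in KO0, KO1, and KO2. The difference of 2.52 percentage points was within the spread (two-sided exact permutation test, p = 0.5, where 3 libraries against 3 cannot give less than 0.1). No syndecan dominated in this way, and *Sdc2*, which led by mean share and in 3 of the 6 libraries, made up a mean of 28.1% in the WT and 31.4% in the KO libraries, with overlap (two-sided exact permutation test, p = 0.2). Over the 2 shares tested, the Benjamini-Hochberg adjusted exact p was 0.5 for *Gpc3* and 0.4 for *Sdc2*. *Sdc4* made up 25.7%, 17.2%, and 34.2% in the WT and 14.3%, 17.8%, and 18.6% in the KO libraries.

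**Figure D4:**
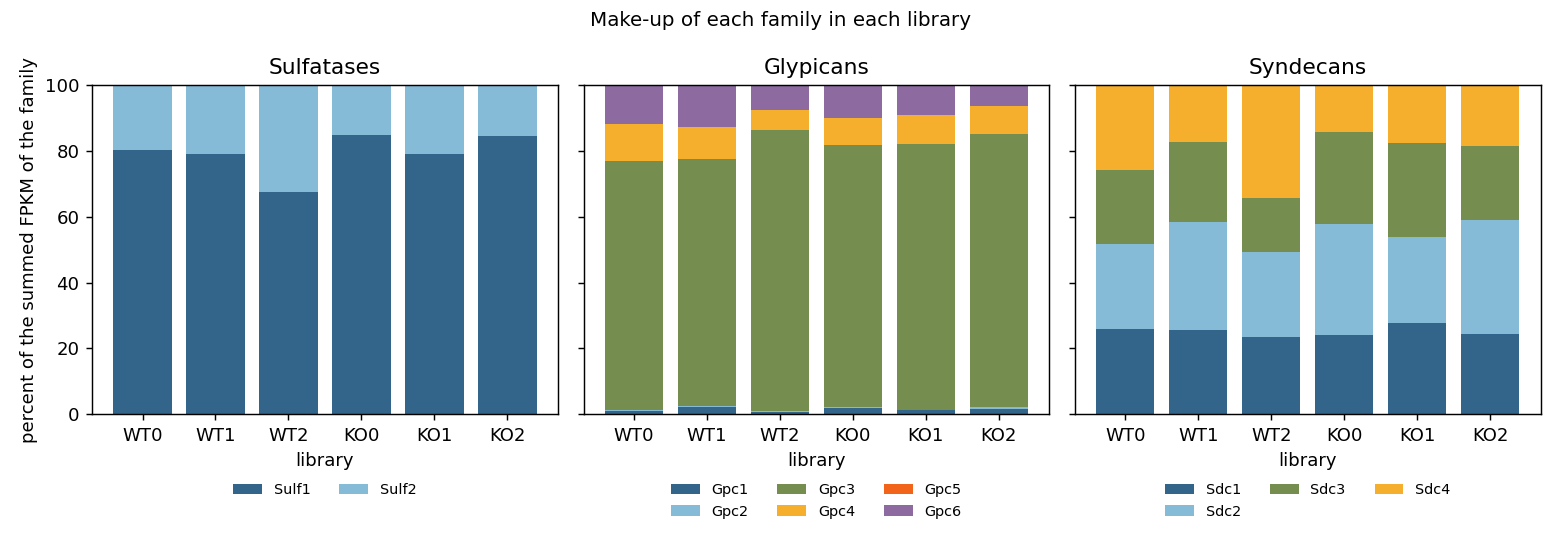
Share of each gene in the summed FPKM of its family (vertical axis, percent) in each library (horizontal axis), for the sulfatases, glypicans, and syndecans. *Gpc3* fills 74.9% to 85.1% of the glypican bars, *Sulf1* 67.4% to 84.9% of the sulfatase bars, and each of the 4 syndecans lies between 14.3% and 34.6% of the syndecan bars.

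*Hspg2*, on chromosome 4 from 137468769 to 137570630, was at 202, 163, and 141 FPKM in WT0, WT1, and WT2 and 122, 214, and 135 FPKM in KO0, KO1, and KO2. KO1 had the highest and KO0 the lowest value of the 6, so perlecan transcript varied as much within the KO group as between the groups. The log2 difference was -0.13 (standard error 0.25, adjusted p = 0.873 from limma). In order of mean FPKM over the 6 libraries, the members ran from *Gpc3* (633) through *Sulf1* (311), *Hspg2* (163), *Sulf2* (82.8), *Gpc6* (77.4), *Gpc4* (70.3), *Sdc2* (41.0), *Sdc1* (35.0), and *Sdc4* (31.1) to *Gpc1* (11.8). The ranges of neighbors overlapped except between *Gpc3* and *Sulf1* and between *Sdc4* and *Gpc1*. *Sulf2* was above *Gpc6* in 3 of the 6 libraries, which were the WT libraries.

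Across the 6 libraries, the 5 genes most like *Sulf2* on the log2(FPKM + 0.1) scale were *Kcne4*, *Kcnj8*, *Tpm2*, *Epn1*, and *Nov*, with Pearson's r between 0.990 and 0.996. These 6 points form the 2 groups that *Sulf2* was chosen to separate, so r mainly describes that separation, and 50 of the 12954 other genes had r of at least 0.95. *Kcnj8*, a subunit of ATP-sensitive potassium channels of vascular muscle, was between 29.0 and 32.8 FPKM in the WT and between 13.2 and 15.6 FPKM in the KO libraries. *Kcne4*, a potassium channel accessory subunit, was between 24.0 and 31.6 FPKM and between 6.71 and 8.17 FPKM. *Tpm2*, the muscle β-tropomyosin, was between 176 and 290 FPKM and between 42.9 and 67.2 FPKM. *Nov*, a matricellular protein of the CCN family, was between 84.3 and 109 FPKM and between 24.2 and 36.6 FPKM. Among the members, r with *Sulf2* was 0.88 for *Sdc1*, 0.81 for *Sdc4*, 0.59 for *Sulf1*, and at most 0.41 for the others.

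The other genes of heparan sulfate were counted in 6 lists. Of 97 genes, 80 were tested, 0 had an adjusted p under 0.05 in limma, and 10 had an unadjusted p under 0.05, of which 5 were lower and 5 higher in KO (6.25% each, beside 4.97% and 3.31% of all genes tested). Without overlap between the groups, 6 were lower and 10 were higher in KO, which is 7.5% and 12.5% of the 80 beside 7.84% and 8.21% of all genes tested. The median log2 difference of the 80 was 0.092.

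Among the other carriers of the chain and the enzymes that build it, no tested gene was without overlap. Of all genes tested, 7.84% were lower and 8.21% higher in every KO library, so 0 among so few genes is near that share. Of 6 tested core proteins outside the member set, 0 were without overlap. *Agrn*, the basement membrane proteoglycan agrin, was the most abundant of them, at 51.8, 49.6, and 54.9 FPKM in the WT and 65.4, 64.5, and 47.3 FPKM in the KO libraries. *Srgn*, the intracellular proteoglycan of blood cells, had 10.5, 8.59, and 8.44 FPKM in the WT and 3.90, 12.8, and 7.24 FPKM in the KO libraries. Of 10 tested genes for the linker and for chain polymerization, 0 were without overlap. *Ext1*, which encodes a subunit of the chain polymerase, was at between 36.1 and 51.5 FPKM in the WT, with a mean of 43.7, and averaged 33.3 FPKM in the KO libraries, which overlap (log2 difference -0.39, adjusted p = 0.643 from limma). *B3galt6*, a linker galactosyltransferase, was at 0.487, 1.52, and 4.54 FPKM in the WT and at 2.79, 3.65, and 3.63 FPKM.

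Among the genes that modify the chain, of 13 tested, 1 was lower and 5 were higher in every KO library (7.69% and 38.5%, beside 7.84% and 8.21% of all genes tested). None had an adjusted p under 0.05 in limma. At an unadjusted p under 0.05 in limma, 3 of the 13 were higher and 1 was lower in KO. These are 23.1% and 7.69%, beside 3.31% and 4.97% of all genes tested. Those without overlap are all named here, after their values were seen. *Hs6st1*, *Hs6st2*, and *Hs6st3* encode the enzymes that add the 6-O-sulfate that the sulfatases remove. *Hs6st1* was at 15.3, 14.9, and 18.1 FPKM in the WT and 11.2, 6.83, and 12.1 FPKM in the KO libraries (log2 difference -0.71, standard error 0.30, adjusted p = 0.594 from limma). *Hs6st2* had 6.81, 5.86, and 8.28 FPKM in the WT and 10.5, 18.6, and 12.5 FPKM in the KO libraries (log2 difference 0.95, standard error 0.32, adjusted p = 0.545 from limma). *Hs6st3* had 4.75, 4.88, and 3.42 FPKM in the WT libraries and a mean of 9.31 FPKM in KO, where KO0 was highest and KO1 and KO2 were at 5.32 and 5.62 FPKM, close to the WT range. *Hs6st1* thus made up between 56.9% and 60.8% of the sum of the 3 genes in the WT and between 22.2% and 39.9% in the KO libraries, a share computed after the values were seen. With *Hs6st1* lower and the others higher in every KO library, the share had to separate, so it adds no finding. The sum itself was between 25.6 and 29.8 FPKM in the WT and between 30.2 and 38.7 FPKM in the KO libraries.

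*Glce*, which encodes the epimerase that converts glucuronic to iduronic acid, was at 10.9, 7.86, and 7.49 FPKM in the WT and 14.9, 14.6, and 12.4 FPKM in the KO libraries. *Hs2st1*, which encodes the 2-O-sulfotransferase, had 10.9, 12.4, and 11.1 FPKM against 13.5, 16.8, and 15.3 FPKM. *Slc35b2*, which encodes a transporter of the sulfate donor PAPS into the Golgi, had 9.27, 9.17, and 3.37 FPKM in the WT and 15.2, 16.0, and 17.4 FPKM in the KO libraries (log2 difference 1.28, standard error 0.42, adjusted p = 0.545 from limma), and its log2 difference was 0.81 without WT2. For these 3 genes every KO library was above every WT library. *Papss1*, which encodes a PAPS synthase, was the most abundant of the list, at 18.0, 24.7, and 32.6 FPKM in the WT and 15.4, 16.0, and 19.9 FPKM in the KO libraries, which overlap. Of the 3-O-sulfotransferase genes, *Hs3st1* alone reached a mean FPKM of 1.

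**Figure D5:**
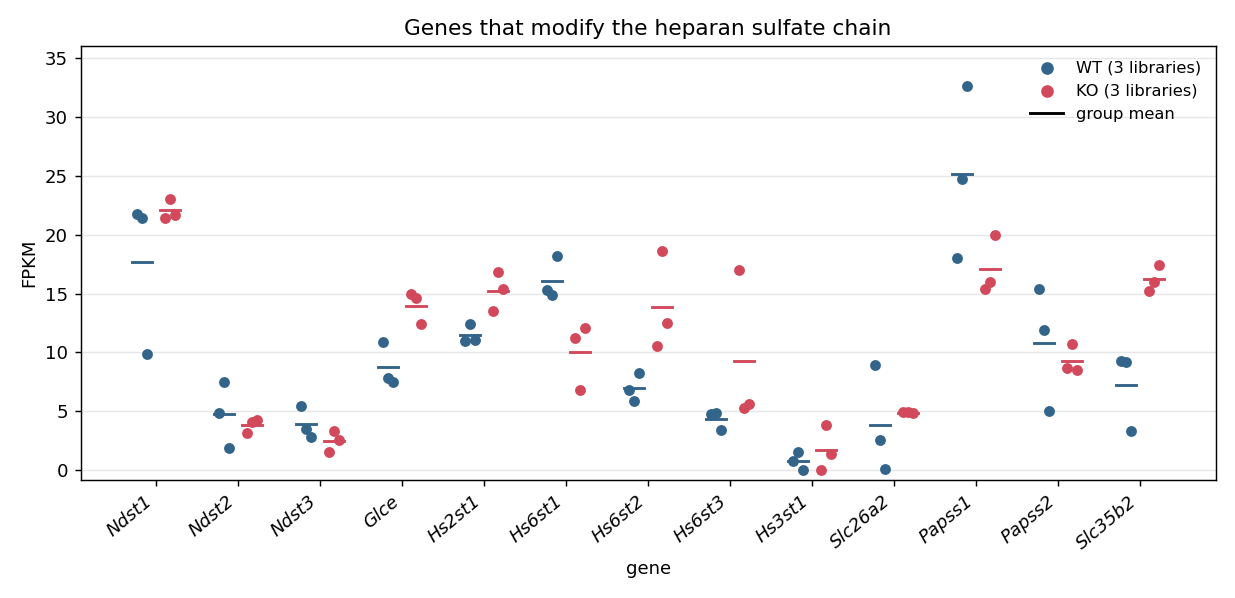
FPKM (vertical axis) of the 13 tested genes that modify the heparan sulfate chain or supply its sulfate (horizontal axis), with 1 point per library and a line at each group mean, WT on the left and KO on the right. *Hs6st1* has every KO point below every WT point, and *Glce*, *Hs2st1*, *Hs6st2*, *Hs6st3*, and *Slc35b2* have every KO point above.

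Of 13 tested genes for degradation and release of the chain, 1 was higher in every KO library (7.69%, near the 8.21% of all genes tested). This was *Hpse2*, a heparanase relative without known chain-cutting activity, listed at 0 in WT0 and WT2, at 0.896 FPKM in WT1, and at 12.8, 1.87, and 3.30 FPKM in KO0, KO1, and KO2. *Adam10*, a protease that sheds cell surface proteins, was the most abundant of the list, at 42.7, 46.1, and 27.5 FPKM and at 39.0, 49.3, and 51.7 FPKM. *Sgsh*, the lysosomal N-sulfatase, had 3.03, 3.49, and 6.73 FPKM in the WT and 1.26, 3.50, and 3.21 FPKM in the KO libraries.

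Of 26 tested ligands that bind heparan sulfate, 4 were lower and 4 higher in every KO library (15.4% each, beside 7.84% and 8.21% of all genes tested). The 4 higher were *Slit2* and the low genes *Pdgfb*, *Hgf*, and *Wnt11*, named after their values were seen. *Pdgfb*, *Hgf*, and *Wnt11* were listed at 0 in WT2, with WT means of 1.97, 1.37, and 1.53 FPKM. The SLIT guidance proteins bind heparan sulfate, and 2 of them had opposite signs. *Slit3* was at 108, 125, and 94.5 FPKM in the WT and 68.6, 66.0, and 82.3 FPKM in the KO libraries (log2 difference -0.59, standard error 0.18, adjusted p = 0.535 from limma). *Slit2* had 21.7, 23.1, and 17.7 FPKM in the WT and 58.8, 30.5, and 26.1 FPKM in the KO libraries (log2 difference 0.80, standard error 0.32, adjusted p = 0.591 from limma), with KO0 highest, and the log2 difference was 0.45 without KO0. *Mdk*, which encodes the growth factor midkine and was the most abundant ligand, was at 180, 279, and 280 FPKM in the WT and 142, 151, and 211 FPKM in the KO libraries, which overlap.

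Of 12 tested FGF receptors and feedback genes, 1 was lower in every KO library (8.33%, near the 7.84% of all genes tested). This was *Fgfr2*. The receptor, which needs heparan sulfate to bind FGFs, was at 44.5, 21.8, and 25.1 FPKM in the WT and 18.0, 13.5, and 10.1 FPKM in the KO libraries (log2 difference -1.10, standard error 0.34, adjusted p = 0.540 from limma). *Fgfr1*, the most abundant of the list, had 54.4, 49.3, and 48.3 FPKM in the WT and 45.8, 48.9, and 32.5 FPKM in the KO libraries, which overlap. *Spred1*, an inhibitor of the pathway below these receptors, had a mean of 14.6 FPKM in the WT and 20.4 FPKM in the KO libraries, which overlap.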

How the data were processed

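Bulk RNA-Seq of E17.5 DA was deposited as 1 table with 1 FPKM value per gene and library, for 3 WT and 3 KO libraries. The authors trimmed reads, used TopHat2 for alignment (mm10), and computed the deposited FPKM by Cufflinks and Cuffdiff. Versions, gene annotation, library strand, and scaling between libraries are not given in the sources used here. Libraries were grouped by their titles, and 0 columns were left unmatched.

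Values were log2(FPKM + 0.1), which understates changes of low genes. Genes whose FPKM averaged 1 or more were fitted with limma 3.58.1 in R 4.3.3 (lmFit, eBayes with trend, two-sided), in place of Cuffdiff, which needs aligned reads. Positions came from GENCODE vM21 on GRCm38, the assembly of mm10, and sequences from RefSeq.

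All 10 members are named, with, from each list, the lowest unadjusted p in each direction and the highest mean FPKM. Members, lists, and tests were chosen with earlier results of these data known. Protein sequences were not used here. Same-numbered libraries did not deviate together (correlations of 0.122, -0.076, and -0.009 over 12955 genes), so the numbers were not taken as pairs.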

Additional observations from a re-analysis of the deposited data

How the results depend on the processing

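Directions rest on the deposited labels. Over 16 alternatives (pseudocount, filter, scaling, variance model, replicate block, and omitted libraries), *Sulf1*, *Sdc1*, *Sdc2*, and *Sdc4* kept a negative and *Gpc3* a positive log2 difference. *Sulf2* also stayed negative in all of them, which is a description, since it was chosen by that sign. Of the members other than *Sulf2*, 0 had an adjusted p under 0.05 in any, and the adjusted p of *Sdc4* ranged from 0.389 to 0.881. Sign changed in uncalled genes. *Gpc4* (-0.37 to 0.24 over omitted libraries) was at 0.12 with quantile normalization, 0.24 without WT0, 0.06 without WT1, 0.02 without KO2, and 0.10 without the 2 libraries highest in heart muscle markers, an alternative chosen after seeing the data, as was its set of results below. *Gpc6* was at 0.13 without those 2 libraries. *Gpc1* was at -0.035 without WT2 (up to 0.81 over omitted libraries). *Hspg2* was at 0.020 with quantile normalization, 0.0075 without WT0, and 0.028 without KO0 (down to -0.38). *Srgn* was at 0.078 without KO0 (down to -0.77).

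The count of genes called over the whole table, 1, became 2 without the mean-variance trend, 2 without moderation, and 3 without the 2 libraries, and lay between 1 and 3 when single libraries were omitted. Members lower in every KO library, 3, ranged from 3 to 6 (6 without WT2, 4 without KO0 or KO1). Groups with fewer libraries separate more readily, and the share of all genes is not given for these settings. Members higher in every KO library, 0, became 1 with quantile normalization and 1 without the 2 libraries, and ranged from 0 to 1. For quantile normalization, too, the share of all genes is not given. In the 6 lists, the 5 genes lower at an unadjusted p under 0.05 became 3 without moderation and 2 without the 2 libraries, and ranged from 2 to 6. The 5 higher became 9 with quantile normalization and 7 with a pseudocount of 1, and ranged from 3 to 6. These ranges are over single omitted libraries. The shares of all genes at that unadjusted threshold are not given for these settings. The changed counts are therefore no result about the lists. The *Gpc3* share differed by 0.705 to 5.79 percentage points and the *Sdc2* share by 1.75 to 6.02 with a library left out. The cause was not tested. With the replicate block, 1 gene was called and no count moved past 1.5 times. FPKM without counts gives no detection floor, and 3 libraries a group limit the precision.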
